A study of Mus musculus with 4 samples.

Results

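Cluster 5 is the smaller of the chief cell clusters that the study defined in the mouse gastric corpus, and it was set here against cluster 0, the neck cells. Both were taken by the cluster number in the deposited cell table. Cluster 5 held 278 and cluster 0 held 1121 of the 4449 cells in 10 clusters. The cells came from 14-week-old female Rosa26iH2b-GFP mice. A histone H2b-GFP fusion under the TRE3G promoter sits in the Rosa26 locus of these mice together with the Tet-on-3G transactivator, which switches it on under doxycycline. All mice had 4 weeks of doxycycline followed by 6 weeks without it, so there was no untreated group and no mouse without the transgene. Dissociated stomach cells were sorted as Epcam+ (Ep+) or as Epcam+GFP+ (GFP+) cells, and each sort gave 2 droplet libraries of unique molecular identifiers (UMIs). The sorted cells of 2 mice were combined, and no source used here shows that libraries of the same sort came from separate mice, so each test is against the variation among 4 libraries, part of which can be technical. Cluster 5 had 62, 40, 85 and 91 cells in GFP+ 1, GFP+ 2, Ep+ 1 and Ep+ 2, and cluster 0 had 116, 68, 441 and 496. Values given in fours follow this order throughout.

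Mucous neck cells lie in the middle of the corpus gland and secrete the gland mucin Muc6 and the trefoil peptide Tff2, while chief cells at the base store digestive proenzymes in large apical granules. Neck cells are regarded as a source of chief cells, and the change from one to the other involves loss of mucin production, growth of the endoplasmic reticulum and expression of the transcription factor Bhlha15 (Mist1). Some chief cells carry Lgr5, a receptor for R-spondins that raises Wnt signaling, and have been described as reserve stem cells that can re-enter division after injury.

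The UMIs of each cluster were summed per library, which gave 8 sums of 2013948 to 10742817 UMIs, and cluster 5 was compared with cluster 0 within libraries. Of 10512 genes tested, 1117 were higher and 1019 lower in cluster 5, so 20.3% were called, 10.6% as higher and 9.69% as lower (edgeR quasi-likelihood test, Benjamini-Hochberg adjusted p under 0.05). Without Ep+ 2 the calls numbered 1355. The study formed the clusters from these same genes, and the adjusted p therefore describes how steady a difference was across libraries and is no independent evidence that the clusters differ. Levels below are scaled CPM, the usual counts-per-million measure with the library sizes adjusted by TMM factors, which were 0.62 to 0.75 in cluster 5 and 1.34 to 1.52 in cluster 0. The factors matter here because 3 genes filled much of the cluster 5 RNA. Clps, Pla2g1b and Pgc together held 55.3%, 61.8%, 55.9% and 54.8% of the UMIs of cluster 5 and 21.5%, 19.3%, 14.7% and 13.1% of those of cluster 0. With library totals in place of the factors, the median log2 difference of all genes tested moved from -0.012 to -1.01, and 219 genes were called higher (2.08%) and 9299 lower (88.5%). With the 3 genes left out of the totals, 905 were higher and 1333 lower. All fitted log2 differences below are relative to the median gene unless library totals are named. Unscaled CPM, shares of cells with a UMI and UMI numbers per cell are not scaled in this way.

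The median mitochondrial share per cell was 2.52% to 3.37% in the libraries of cluster 5 and 6.12% to 7.65% in cluster 0. Cells called as doublets by Scrublet numbered 37 of 278 (13.3%) in cluster 5 and 2 of 1121 in cluster 0. In cluster 5 the called cells had a median of 107636 UMIs and 5716 genes against 25510 UMIs and 3798 genes in the other cells, and they held 32.4% of the cluster's UMIs. The counts of the gene lists below were therefore also taken without the called doublets, where 999 genes were higher (10.1%) and 971 lower (9.86%) of 9852 tested, and where needed after thinning all cells to 13268 UMIs, where 574 were higher (7.58%) and 517 lower (6.82%) of 7576. In all, 4 barcodes occurred in more than 1 library, on 2 cells of cluster 5 and 5 of cluster 0. All 10 chief cell markers were called higher in cluster 5, with a summed level of 566975 to 633844 unscaled CPM against 131924 to 217528. Muc6 was detected in 99.8% of the cells of cluster 0 and in 84.5% of those of cluster 5. Of the 6 neck markers 2 were called lower in cluster 5, 1 higher and 3 neither way. Without doublets 3 were lower and 2 higher. Markers of squamous, immune, endothelial and red blood cells were too low to test, and immune and endothelial cells were removed by the study.

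The digestive products of chief cells were the most changed genes by level. Of 13 tested members of the list of chief secreted products, 10 rose and none fell (median log2 difference 3.87, against -0.012 for all genes), and without doublets 11 rose and 1 fell, the elastase Cela1 being among those that then rose. With library totals, 10 rose as well (median 2.87). Clps, which encodes colipase, the cofactor of pancreatic lipase, lies at chr17:28558149-28560766 (mm10). Its level in cluster 5 was 302224, 420591, 335891 and 317576 scaled CPM, and in cluster 0 it was 9906, 9178, 4008 and 4405. Every cluster 5 value was above every cluster 0 value, with a 54.0-fold difference (log2 5.75 ± 0.39, SE; adjusted p = 0.00465, edgeR). The secreted phospholipase Pla2g1b was at 168068, 248222, 218786 and 194328 against 7814, 8472, 4686 and 4402 scaled CPM, again with no overlap (log2 5.08 ± 0.30, adjusted p = 0.00327). Groups without overlap were common, at 1912 of the 10512 genes tested (18.2%), and this share stands beside each such remark below.

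Pgc, which encodes pepsinogen C, was abundant on both sides. It stood at 275715, 323457, 231020 and 216969 scaled CPM in cluster 5 and at 143323, 123193, 92693 and 77416 in cluster 0. The groups did not overlap, but the fold was 2.44 (log2 1.29 ± 0.082, adjusted p = 6.47e-06), well below that of Clps. Cblif, the gastric intrinsic factor that binds vitamin B12, was at 14471, 11388, 11677 and 12339 scaled CPM against 1330, 1172, 619 and 536 (log2 3.87 ± 0.33, adjusted p = 0.00775). Within cluster 0, the 2 GFP+ libraries had the higher values of Clps, Pla2g1b, Pgc and Cblif.

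**Figure D1:**
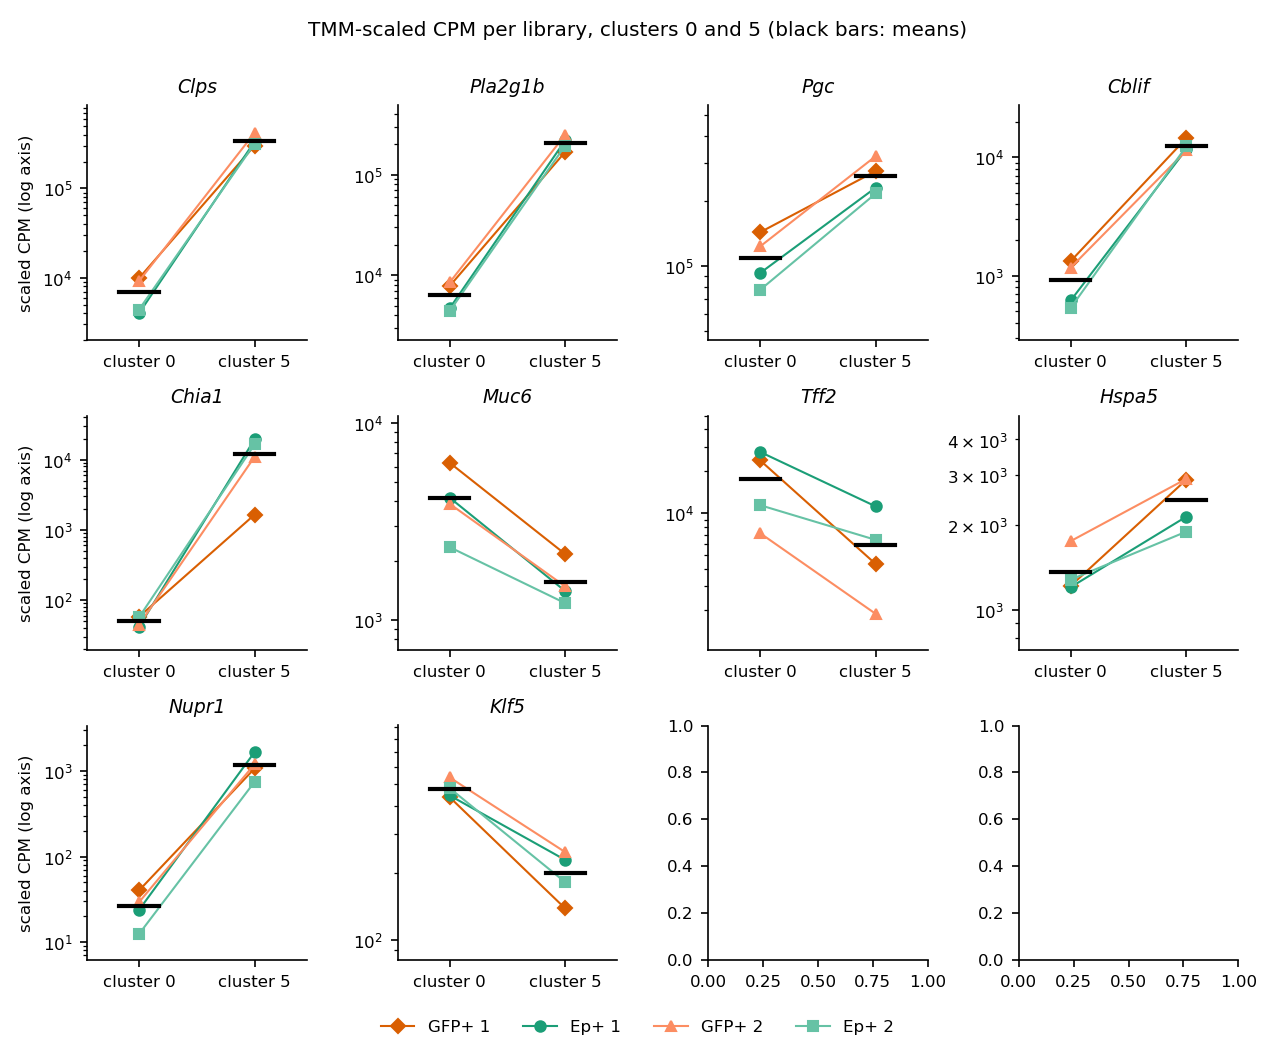
Scaled CPM (TMM-scaled, log axis) of 10 genes in cluster 0 and cluster 5, with a line for each of the 4 libraries and black bars for the means. Clps, Pla2g1b and Cblif rose by more than Pgc in each library, Muc6 and Klf5 fell, and the Chia1 value of GFP+ 1 in cluster 5 (1649 scaled CPM) lay below those of the other libraries.

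Chia1, an acidic chitinase, showed a large difference, and most of its UMIs lay in few cells. Its level was 1649, 11005, 19545 and 16486 scaled CPM in cluster 5 and 57.9, 44.5, 41.7 and 57.0 in cluster 0 (log2 7.59 ± 1.1, adjusted p = 0.0298). GFP+ 1 was the lowest library of cluster 5, though still above all of cluster 0. After thinning, Chia1 was seen in 59.1% of cluster 0 cells and in 50.5% of cells of cluster 2, which is rich in pit cell products. The median was 1 UMI in both, so the cluster 0 level was near this background. The 10 richest of the 278 cells held 78.5% of the Chia1 UMIs of cluster 5, and called doublets held 75.8%. Without them the difference was 6.23 (adjusted p = 0.0115). The call was lost without Ep+ 1 (7.06, adjusted p = 0.115), Ep+ 2 (7.31, 0.153) or GFP+ 2 (7.46, 0.128), and without GFP+ 1 the difference was 8.37.

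The remaining large rises were other genes of zymogenic cells, a surface protein and some genes of unknown role. The trypsinogens Try4 (log2 5.59 ± 0.14, adjusted p = 3.28e-12) and Try10 (7.44 ± 0.22, 8.5e-12) rose, though reads of these near-identical family members may be shared out unevenly by the counting, and without Ep+ 1 the Try10 difference was 6.78. Pnliprp1, a pancreatic lipase-related protein that was named after its values were seen, was at 98.3, 109, 62.9 and 107 scaled CPM against 5.37, 3.98, 2.37 and 1.98 (log2 4.94 ± 0.19, adjusted p = 4.62e-10). Psca, a GPI-anchored surface protein, rose by 5.65 ± 0.47 on the log2 scale (adjusted p = 0.00732). Called doublets held 63.2% of its cluster 5 UMIs and 10 cells held 53.4%. Without the doublets Psca was at 863, 1624, 892 and 588 unscaled CPM against 59.0, 53.1, 54.5 and 102. The genes Gm12888 (7.86 ± 0.14, adjusted p = 3.59e-21) and Gm35572 (5.02 ± 0.29, adjusted p = 0.000136) have names only. In cluster 5, called doublets held 61.2% of the Try10 UMIs and 52.2% of the Gm12888 UMIs, against 32.4% of all UMIs. Furin, the convertase that cuts precursor proteins in the Golgi apparatus, was at 1549, 1674, 1459 and 1519 scaled CPM in cluster 5 and at 99.0, 103, 70.9 and 57.0 in cluster 0, a difference of 4.28 ± 0.14 (adjusted p = 9.14e-08) with narrow spread on the cluster 5 side.

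Products of surface pit cells also came out high in the cluster 5 sums, and they lost their calls without the called doublets. Gkn1, a gastrokine of pit cells, was at 1412, 477, 2942 and 3079 scaled CPM against 15.9, 11.9, 38.1 and 51.4 (log2 6.08 ± 0.17, adjusted p = 1.86e-07). Gkn2 (6.10 ± 0.35, adjusted p = 0.00251) and Tff1 (5.68 ± 0.46, adjusted p = 0.00713) were called too, so 4 of the 5 tested pit markers rose, and their summed level was 2084 to 8781 unscaled CPM against 137 to 586. Without the called doublets none of the 5 was called, with Gkn1 at 3.93 (adjusted p = 0.272), Gkn2 at 4.04 (0.291) and Tff1 at 3.19 (0.318). The Gkn1 level left in cluster 5 was then 880 and 1610 unscaled CPM in GFP+ 1 and Ep+ 1 but 15.2 and 63.7 in GFP+ 2 and Ep+ 2. After thinning with the doublets kept, 4 of 5 pit markers were called (median 3.97). The call for Tff1 was also lost without Ep+ 2 (5.83, adjusted p = 0.0602) or GFP+ 1 (5.61, 0.0513). In cluster 5, 88.0% of the Gkn1 UMIs lay in 10 cells and 71.1% in called doublets. Krt19, a keratin of pit and isthmus cells, did not pass (log2 0.50 ± 0.41, adjusted p = 0.523), and it passed without GFP+ 1 (0.86, adjusted p = 0.0031). Called doublets held 65.0% of its cluster 5 UMIs and 10 cells held 63.3%. Without the doublets Krt19 was at 60.9, 19.0, 153 and 23.7 unscaled CPM against 169, 80.4, 196 and 181, and it was not called. On that unscaled measure the median log2 difference of all genes was itself -0.87. Parietal markers were called as well, with Atp4a, the proton pump subunit, at 3.26 ± 0.19 (adjusted p = 2.83e-08), which fell to 2.57 (adjusted p = 0.0833) without the called doublets. Of the parietal list 2 of 4 tested genes rose, with a summed level of 51.4 to 118 unscaled CPM against 50.3 to 61.3, and 1 of 4 rose without doublets. The fibroblast list had 1 tested gene, the proteoglycan Dcn, at 5.41, 2.12, 10.1 and 11.3 scaled CPM in cluster 5 and at most 0.398 in cluster 0 (log2 5.07 ± 0.46, adjusted p = 2.36e-08). Unlike the pit markers, Dcn kept its call without the called doublets (5.35), which held 11.3% of its 71 UMIs in cluster 5. The part of mixed droplets in these differences was not tested beyond the values without called doublets.

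**Figure D2:**
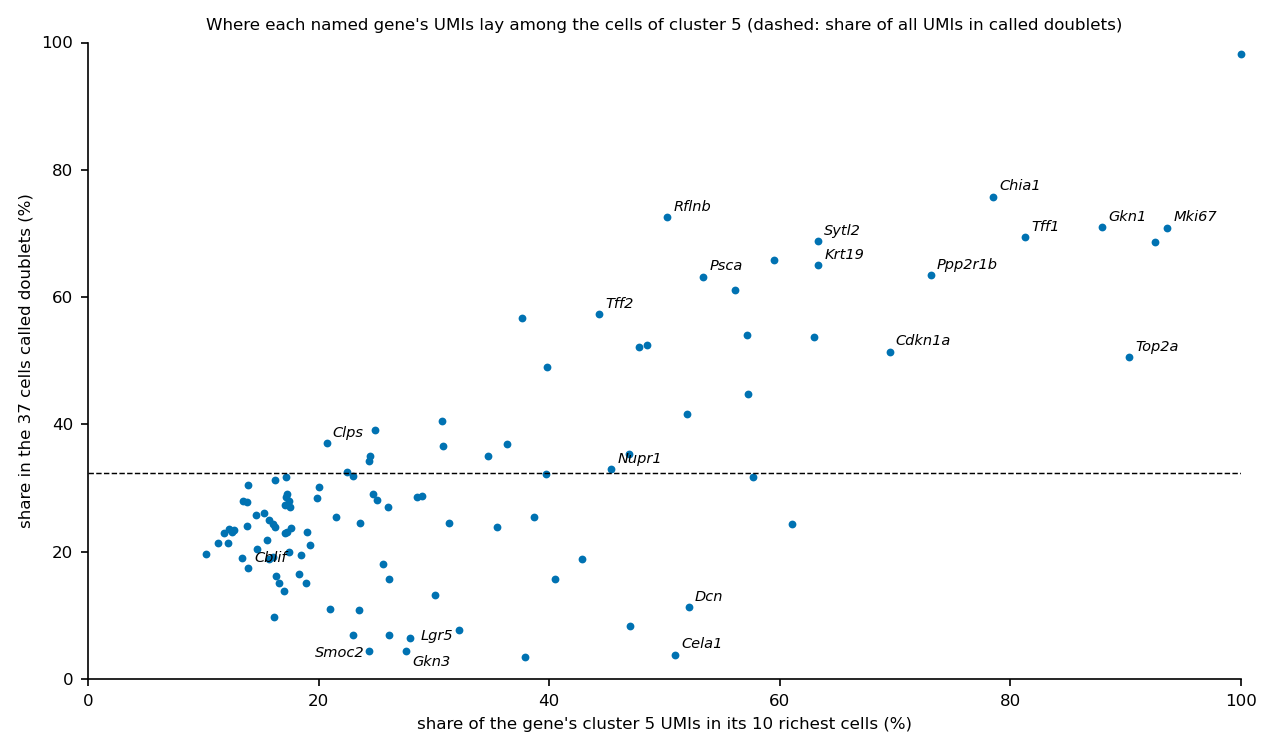
For each named gene with at least 50 UMIs in cluster 5, the x axis gives the percent of its UMIs in its 10 richest cells and the y axis the percent in the 37 called doublets, and the dashed line marks the doublets' share of all UMIs (32.4%). Chia1, Gkn1 and Mki67 lie far to the right and above the line, while Lgr5 (27.9% and 6.41%) and Smoc2 (24.4% and 4.41%) lie to the left and below it.

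Of the products of neck cells, some fell and some did not. Of 13 tested members of the neck mucous list, 2 rose and 3 fell (median -0.19), and without doublets 5 rose and 5 fell. With library totals none rose and 9 fell. Muc6, which encodes the gland mucin and lies at chr7:141633456-141655319 (mm10), was at 2159, 1480, 1401 and 1217 scaled CPM in cluster 5 against 6275, 3884, 4173 and 2341 in cluster 0. The groups did not overlap (log2 -1.36 ± 0.094, adjusted p = 7.03e-07), and the call was lost in a fit over all clusters (-1.40, adjusted p = 0.14) and after thinning (-1.04, adjusted p = 0.057). Tff2 was at 4306, 1888, 11187 and 6429 against 23950, 7174, 27554 and 11416 scaled CPM. The groups overlapped and the difference did not pass (-1.63 ± 0.36, adjusted p = 0.0754). Called doublets held 57.4% of the Tff2 UMIs of cluster 5, and without them Tff2 fell by 2.34 on the log2 scale (adjusted p = 1.33e-18). Agr2, a disulfide isomerase needed for mucin folding, fell from 5810 to 7465 scaled CPM in cluster 0 to 3163 to 5327 in cluster 5 (-0.66 ± 0.086, adjusted p = 9.36e-05). Pga5, a pepsinogen, was at 1534, 628, 1305 and 1104 against 2558, 1975, 1695 and 930 (-0.62 ± 0.39, adjusted p = 0.41), with overlapping groups.

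Gkn3, a gastrokine of neck cells, went the other way from Muc6. Its level was 12354, 2872, 6532 and 4172 scaled CPM in cluster 5 and 4753, 1312, 2553 and 781 in cluster 0. Cluster 5 was above cluster 0 in each library, but GFP+ 1 of cluster 0 lay above 2 of the cluster 5 values, so the groups overlapped. The difference was 1.57 ± 0.29 (adjusted p = 0.0487), and 1.94 (adjusted p = 0.04) without doublets. The call was lost without Ep+ 1 (1.64, adjusted p = 0.155), GFP+ 1 (1.64, 0.152) or GFP+ 2 (1.71, 0.0938), and with library totals (0.56, 0.14).

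Among the enzymes that build mucin sugars, more fell than rose. Of 26 tested genes of mucin glycosylation, 13 fell, 1 rose and 12 were not called (median -0.43), and without doublets 10 fell and 2 rose of 23. After thinning 7 fell and 1 rose of 23 (median -0.17). With library totals 25 fell. A4gnt, which adds the terminal GlcNAc of gland mucin, was at 239, 141, 210 and 210 scaled CPM against 401, 368, 404 and 319 (-0.90 ± 0.10, adjusted p = 1.29e-05). Galnt6, an enzyme that starts O-glycan chains, was at 15.3, 12.7, 23.9 and 20.2 against 65.6, 48.1, 78.2 and 53.9 (-1.74 ± 0.12, adjusted p = 2.53e-10), a wider separation than for A4gnt. Galnt7 (-0.65 ± 0.080) and the core branching enzyme Gcnt3 (-0.47 ± 0.079, adjusted p = 0.000125) fell by less, and the call for Gcnt3 was lost after thinning (-0.16, adjusted p = 0.40). The 1 gene that rose was the sialyltransferase St3gal6 (0.74 ± 0.083, adjusted p = 5.13e-07), which was lower in cluster 5 with library totals (-0.27).

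Many cells of cluster 5 held products of both kinds. After thinning to 13268 UMIs a cell, 220 cells of cluster 5 and 1039 of cluster 0 remained, while 58 and 82 shallower cells were left out. At least 10 UMIs each of Muc6 and Cblif were present in 100 of 220 cluster 5 cells (45.5%), of which 7 were called doublets, in 236 of 1039 cluster 0 cells (22.7%) and in 1 of 886 cells of cluster 1, the larger chief cell cluster. The share by library was 52.0%, 25.8%, 48.5% and 46.5% in cluster 5 and 47.2%, 39.1%, 21.8% and 15.5% in cluster 0. GFP+ 2 of cluster 5 was lower than that of cluster 0, so the order of the clusters did not hold in all libraries. Gkn3 and Cblif met the same minimum in 131 of 220 (59.5%) and 189 of 1039 (18.2%) cells, and here cluster 5 was higher in each library. Over all 220 thinned cells of cluster 5, those with both products included, Muc6 had no UMI in 34.5% and a median of 5.5 against 51.0 in cluster 0. The Gkn3 median was 38.5 against 2.00. Both medians are per total UMIs. With thinned cells and library totals, the median log2 difference of all genes was itself -0.73. Gkn1 and Cblif met the minimum together in 20 of 220 cells, 11 of them called doublets.

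**Figure D3:**
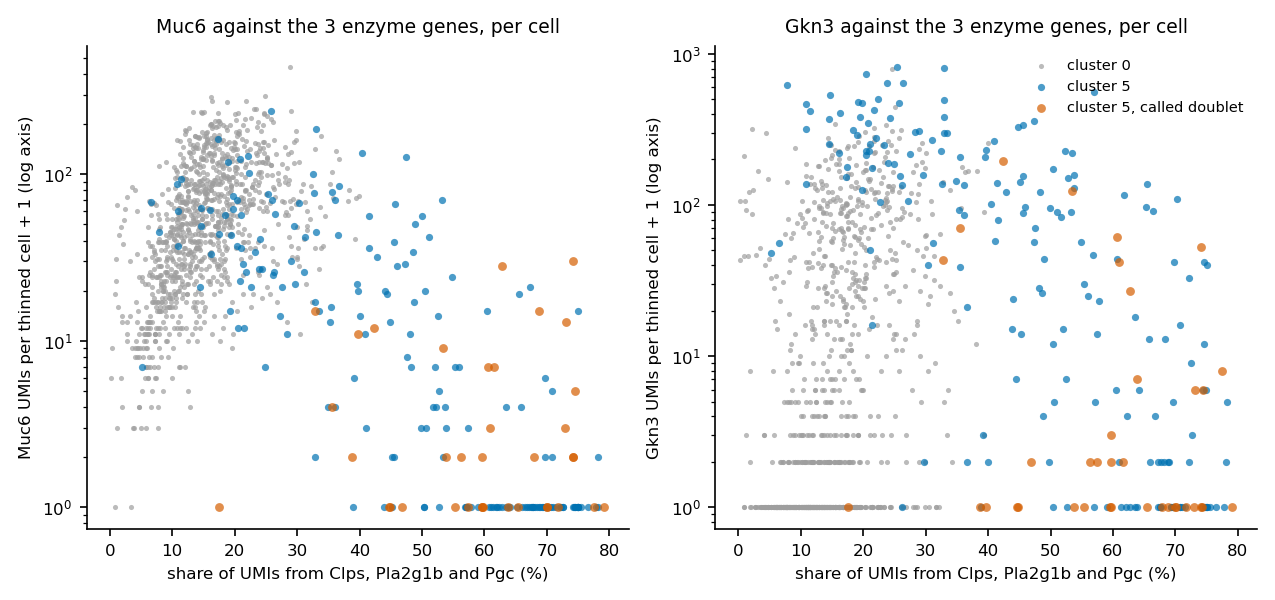
Each point is 1 thinned cell of cluster 0 (grey), cluster 5 (blue) or a called doublet of cluster 5 (orange), with the share of its UMIs from Clps, Pla2g1b and Pgc on the x axis (%) and its Muc6 (left) or Gkn3 (right) UMIs plus 1 on a log y axis. Cluster 5 runs from the range of cluster 0 out to 79.1%, and Muc6 is lower among its cells of high enzyme share. The y values are per total UMIs, so a high enzyme share leaves fewer UMIs for all other genes.

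Enzyme content varied widely inside cluster 5. The share of UMIs from Clps, Pla2g1b and Pgc had a median of 43.4% per cell and a range of 2.30% to 79.1%, whereas no cell of cluster 0 was above 39.95%. Of the 241 cells of cluster 5 not called as doublets, 125 lay within the range of cluster 0 and 116 above it. This division was made after the data were seen and uses the same cells, so the values that follow are a description with no test, and they are CPM over the UMIs outside the 3 genes (mean ± SD, n = 4 libraries). Muc6 was at 5926 ± 1185 in the cells within the range, at 1308 ± 217 in those above it and at 7133 ± 2719 in cluster 0. Gkn3 was at 22257 ± 11769, 6717 ± 2370 and 4018 ± 3000 in the same groups. Cblif was at 19899 ± 5358, 25308 ± 2221 and 1557 ± 673. The cells within the range thus had Muc6 near the neck level and Cblif near the level of the cells above it. Agr2 followed Muc6, at 11532 ± 2322, 5730 ± 1021 and 11387 ± 1282. Tff2 did not, at 7201 ± 4381, 5140 ± 3343 and 30023 ± 16617. Klf5 (427 ± 98.1, 290 ± 108 and 814 ± 77.5) and Id4 (89.4 ± 63.6, 21.3 ± 16.5 and 192 ± 22.2) likewise had means below the neck level in the cells within the range. In GFP+ 2, however, Id4 was at 182 in those cells and 178 in cluster 0. Lgr5 was at 114 ± 51.0, 69.4 ± 16.7 and 7.07 ± 3.23, and Smoc2 at 246 ± 84.4, 75.4 ± 26.7 and 12.4 ± 7.50, both with the highest mean in the cells within the range. Other chief cell genes had their highest mean in the cells above the range. Chia1 was at 477 ± 289, 11706 ± 6675 and 85.7 ± 15.8. Furin was at 856 ± 65.7, 3800 ± 569 and 137 ± 41.2. Cdkn1c was at 342 ± 102, 1213 ± 176 and 144 ± 64.0. Chac1 was near the level of cluster 0 (5.92 ± 4.69) in the cells within the range (5.73 ± 7.09) and at 106 ± 48.9 in those above it. Median depth also differed between these cells, at 16784 UMIs within the range and 42150.5 above it.

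Markers of reserve chief cells and genes that respond to Wnt signaling were higher in cluster 5. Of 25 tested genes on this list, 14 rose and 2 fell (median 0.90), and without doublets 15 of 23 rose and none fell (median 1.11). With library totals 9 rose and 10 fell. Lgr5, at chr10:115450311-115587780 (mm10), was at 69.4, 27.5, 41.5 and 33.4 scaled CPM in cluster 5 and at 6.56, 4.34, 3.71 and 1.92 in cluster 0. The lowest cluster 5 value was above the highest of cluster 0, with a log2 difference of 3.54 ± 0.17 (adjusted p = 3.17e-13). Lgr5 UMIs were seen in 47.1% of cluster 5 cells and 6.78% of cluster 0 cells, and after thinning in 34.1% and 4.33%. Cluster 2, in which 94.6% of thinned cells held the pit cell product Gkn1, gave a background of 0.346%, and the median depths of clusters 5, 0 and 2 were 29204, 23534 and 37728 UMIs. Lgr5 was found in the same thinned cell as 10 or more Gkn3 UMIs in 64 of 220 cells of cluster 5 (29.1%) and 36 of 1039 of cluster 0.

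Smoc2, a secreted matrix protein known from Lgr5+ intestinal stem cells, was at 108, 32.5, 68.8 and 72.7 scaled CPM against 11.3, 10.9, 3.20 and 3.65 (log2 3.69 ± 0.51, adjusted p = 0.0244). The groups did not overlap, and the call was lost without Ep+ 1 (3.41, adjusted p = 0.0962), Ep+ 2 (3.41, 0.127) or GFP+ 1 (3.90, 0.0981). Tnfrsf19 (Troy), a further reserve chief cell marker, was at 26.6, 39.5, 18.3 and 21.4 against 13.1, 8.32, 8.0 and 4.02 (1.64 ± 0.23, adjusted p = 0.000339). The feedback inhibitors and responsive factors of the Wnt pathway given next were named after their values were seen, so they were picked as genes that rose. Axin2, a scaffold of the complex that degrades beta-catenin, was at 15.3, 9.89, 9.73 and 10.9 against 4.97, 5.43, 5.06 and 3.46 (1.30 ± 0.22, adjusted p = 0.000114). Nkd1 (2.81 ± 0.32), the secreted Wnt deacylase Notum (2.59 ± 0.42, lower in GFP+ 2) and the ubiquitin ligase Rnf43 (1.03 ± 0.15), which removes Frizzled receptors, rose as well. So did the Wnt-responsive transcription factors Sp5 (2.57 ± 0.20) and Ascl2 (1.87 ± 0.22). With library totals Axin2 (0.31, adjusted p = 0.20) and Rnf43 (0.04, 0.84) were not called. Gper1, an estrogen receptor of the plasma membrane, was at 121, 129, 116 and 91.0 against 14.5, 19.9, 11.4 and 6.31 scaled CPM (3.30 ± 0.14, adjusted p = 9.48e-10). Aqp5, a water channel of neck and deep gland cells, rose by 0.44 ± 0.11 (adjusted p = 0.00926) and was lower with library totals (-0.57), and its call was lost without Ep+ 2 (0.35, adjusted p = 0.0726). Sox9, a transcription factor of progenitors, fell by 0.43 on the log2 scale (adjusted p = 0.000415), and without doublets it missed the threshold (-0.24, adjusted p = 0.0515).

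**Figure D4:**
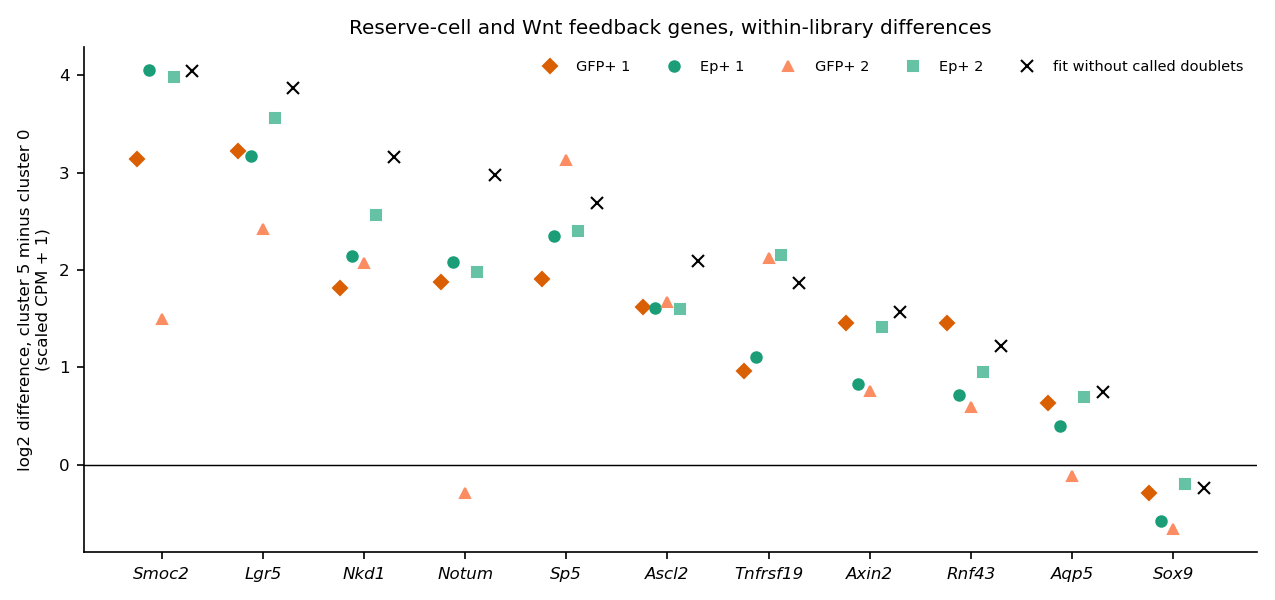
Log2 difference of scaled CPM plus 1 between cluster 5 and cluster 0 within each of the 4 libraries (symbols) for 11 reserve-cell and Wnt feedback genes, and the fitted difference without called doublets (cross). Lgr5, Smoc2 and Sp5 were above 0 in each library, Notum (-0.29) and Aqp5 were below 0 in GFP+ 2, and Sox9 was below 0, while with library totals Aqp5 was below 0 over all libraries (-0.57).

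A promoter scan was made for this list with RefSeq windows (GRCm38.p6, 250 bases before to 50 after the annotated start, both strands). The TCF core ATCAAAG was found in 2 of 21 windows (9.52%), against 4.29% of all 27025 genes with a window, and both genes, Sp5 and Tnfrsf19, were called higher. They are shown because the letters lie near the start of genes that rose. The capitals mark the match, which is on the opposite strand for Sp5, at chr2:70474792-70474851, and on the promoter strand for Tnfrsf19, at chr14:61038157-61038216.
Sp5: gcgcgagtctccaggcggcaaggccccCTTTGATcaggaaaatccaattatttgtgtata
Tnfrsf19: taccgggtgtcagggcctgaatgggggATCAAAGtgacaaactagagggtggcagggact

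Among lineage transcription factors, 3 of 31 tested genes rose and 13 fell (median -0.28), and without doublets 3 rose and 9 fell of 30. Bhlha15, which builds the secretory machinery of zymogenic cells, was at 42.4, 36.7, 28.4 and 36.2 scaled CPM against 5.57, 5.07, 4.16 and 2.84 (log2 3.09 ± 0.17, adjusted p = 3.28e-12), with no overlap. Xbp1, the transcription factor of the unfolded protein response that acts upstream of it, rose by 0.64 ± 0.068 (adjusted p = 2.2e-07), but with library totals it was lower (-0.37). Klf5, a factor of proliferating epithelium, was at 138, 248, 229 and 182 against 437, 537, 446 and 480 (-1.28 ± 0.097, adjusted p = 8.57e-08), and the groups were well apart. Foxq1, known for a role in pit cell mucin expression, fell by 0.91 on the log2 scale (adjusted p = 0.0155), with the call lost without Ep+ 2 (-0.97, adjusted p = 0.0602) or GFP+ 1 (-0.90, 0.0693). Id4, an inhibitor of basic helix-loop-helix factors such as Bhlha15, was at 23.9, 30.4, 19.8 and 26.4 against 108, 105, 131 and 102 scaled CPM (-2.18 ± 0.12, adjusted p = 8.9e-11). The E-box CAGCTG was found in none of the 8 chief marker promoters with a window, against 18.3% of all.

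Regulators of the cell cycle gave a mixed picture. Cdkn1c (p57), an inhibitor of cyclin-dependent kinases that has been linked to quiescence, was at 531, 658, 392 and 429 scaled CPM against 125, 104, 69.0 and 39.5 (log2 2.67 ± 0.28, adjusted p = 0.0115). The groups did not overlap, and the call was lost without Ep+ 1 (2.73, adjusted p = 0.0652) or GFP+ 2 (2.67, 0.0677). Cdkn1a (p21) rose by 3.41 ± 0.29 (adjusted p = 5.54e-09) from at most 1.54 scaled CPM in cluster 0. Its 105 UMIs in cluster 5 lay in 35 of 278 cells, so most cells of the cluster had none. The 10 richest cells held 69.5% of these UMIs and called doublets held 51.4%. The D-type cyclin Ccnd1 fell (-0.84 ± 0.096, adjusted p = 7.61e-07), while Ccnd2 rose (0.26 ± 0.078, adjusted p = 0.0172) and lost the call without Ep+ 2 (0.18, adjusted p = 0.185) or GFP+ 1 (0.24, 0.0734), and was lower with library totals (-0.74). Of 27 tested proliferation genes 15 rose and none fell (median 1.07), whereas without called doublets 4 rose and 1 fell of 24 (median 0.33), and after thinning none rose and 1 fell of 13. Mki67 did not pass (1.12 ± 0.71, adjusted p = 0.409), with 1.35, 21.9, 21.0 and 19.8 scaled CPM against 8.55, 2.89, 9.03 and 6.93, although it passed without GFP+ 1 (1.55, adjusted p = 1.23e-05). In cluster 5, 10 cells held 93.6% of the Mki67 UMIs and called doublets held 70.9%. Top2a rose (2.44 ± 0.57, adjusted p = 0.0264) and lost the call without doublets (1.75, adjusted p = 0.0721), without Ep+ 1 (1.88, 0.0653) or without Ep+ 2 (2.80, 0.0613). Pcna rose (0.49 ± 0.12, adjusted p = 0.0052), with the call lost without doublets (0.36, adjusted p = 0.0511) and without Ep+ 1 (0.37, 0.0842), and with library totals it was lower (-0.52). Mcm6 (0.58 ± 0.19, adjusted p = 0.0413) kept its call only without GFP+ 1 among the libraries left out in turn, and was 0.23 (adjusted p = 0.482) without doublets. The isthmus markers gave 3 of 5 as higher with the doublets, where their sum was 36.4 to 129 unscaled CPM against 76.0 to 104, and none of 5 without them.

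Genes for folding and disposal of proteins in the endoplasmic reticulum rose as a group relative to the median gene. Of 46 tested, 34 rose and 3 fell (median 0.68), and without doublets 32 rose and 4 fell, while with library totals 4 rose and 27 fell (median -0.33), so the direction of the list depends on the scaling. Hspa5 (BiP), the Hsp70 chaperone of the reticulum, was at 2886, 2906, 2138 and 1894 scaled CPM against 1221, 1754, 1207 and 1283 (0.84 ± 0.092, adjusted p = 1.95e-05), and was -0.17 with library totals. The groups did not overlap. Larger rises belonged to components typical of cells with a heavy secretory load. Ero1lb, an oxidase that supplies disulfide bonds, was at 83.8, 99.6, 81.6 and 84.0 against 10.9, 11.6, 9.22 and 9.96 (3.07 ± 0.10, adjusted p = 7.24e-16). Pdia2, a disulfide isomerase of exocrine cells, was at 1563, 1648, 1625 and 1317 against 351, 301, 291 and 222 (2.41 ± 0.075, adjusted p = 1.45e-16). Both kept their direction with library totals. Hsp90b1 (0.70 ± 0.087) and Ppib (0.49 ± 0.067) rose by less and were lower with library totals (-0.30 and -0.51). Dnajc10, a reductase of the reticulum, fell by 0.71 on the log2 scale (adjusted p = 2.14e-06). Of genes named after their values were seen, Derl3, a channel component for protein disposal, rose by 2.96 ± 0.22, the stress-responsive Creld2 by 1.28 ± 0.11 and the lectin chaperone Calr by 0.80 ± 0.086, with Calr lower with library totals (-0.21). The related lectin chaperone Canx was at 0.04 ± 0.086 (adjusted p = 0.832).

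Promoters of this list often held the endoplasmic reticulum stress element, the known binding sequence of Atf6 with NF-Y. The letters CCAAT followed after 9 bases of any kind by CCACG were found on either strand in 10 of 40 RefSeq windows (25.0%), against 37 of 27025 (0.137%) in all genes, and in none of 24 windows of the translocation list. Of the 10 genes, 9 were called higher and Canx was not. A match describes the letters of the window and says nothing on binding in these cells. The windows shown lie fully upstream of the start (GRCm38.p6) and were chosen to set genes of large and small difference beside Canx, with the element in capitals. It lies on the promoter strand in Hspa5 (chr2:34772004-34772063), Hsp90b1 (chr10:86705618-86705677) and Canx (chr11:50325780-50325839), and on the opposite strand in Ero1lb (chr13:12565661-12565720), Derl3 (chr10:75893221-75893280), Creld2 (chr15:88819499-88819558) and Calr (chr8:84847055-84847114).
Hspa5: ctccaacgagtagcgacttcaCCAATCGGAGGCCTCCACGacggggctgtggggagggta
Hsp90b1: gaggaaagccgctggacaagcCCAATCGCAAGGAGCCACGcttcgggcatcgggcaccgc
Canx: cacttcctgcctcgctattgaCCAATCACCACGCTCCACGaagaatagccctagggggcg
Ero1lb: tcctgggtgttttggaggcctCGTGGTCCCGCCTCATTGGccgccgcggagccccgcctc
Derl3: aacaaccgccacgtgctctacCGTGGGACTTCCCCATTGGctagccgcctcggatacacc
Creld2: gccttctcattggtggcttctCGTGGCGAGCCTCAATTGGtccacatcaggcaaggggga
Calr: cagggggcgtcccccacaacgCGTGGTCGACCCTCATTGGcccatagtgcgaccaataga
The element lay 65 bases before the annotated start in Hspa5 and 201 bases before it in Ero1lb, and Hsp90b1 held a further match nearer to its start. Canx carries the same letters as Hspa5 at the fixed positions and did not pass the test, so the match does not by itself mark the genes that rose.

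**Figure D5:**
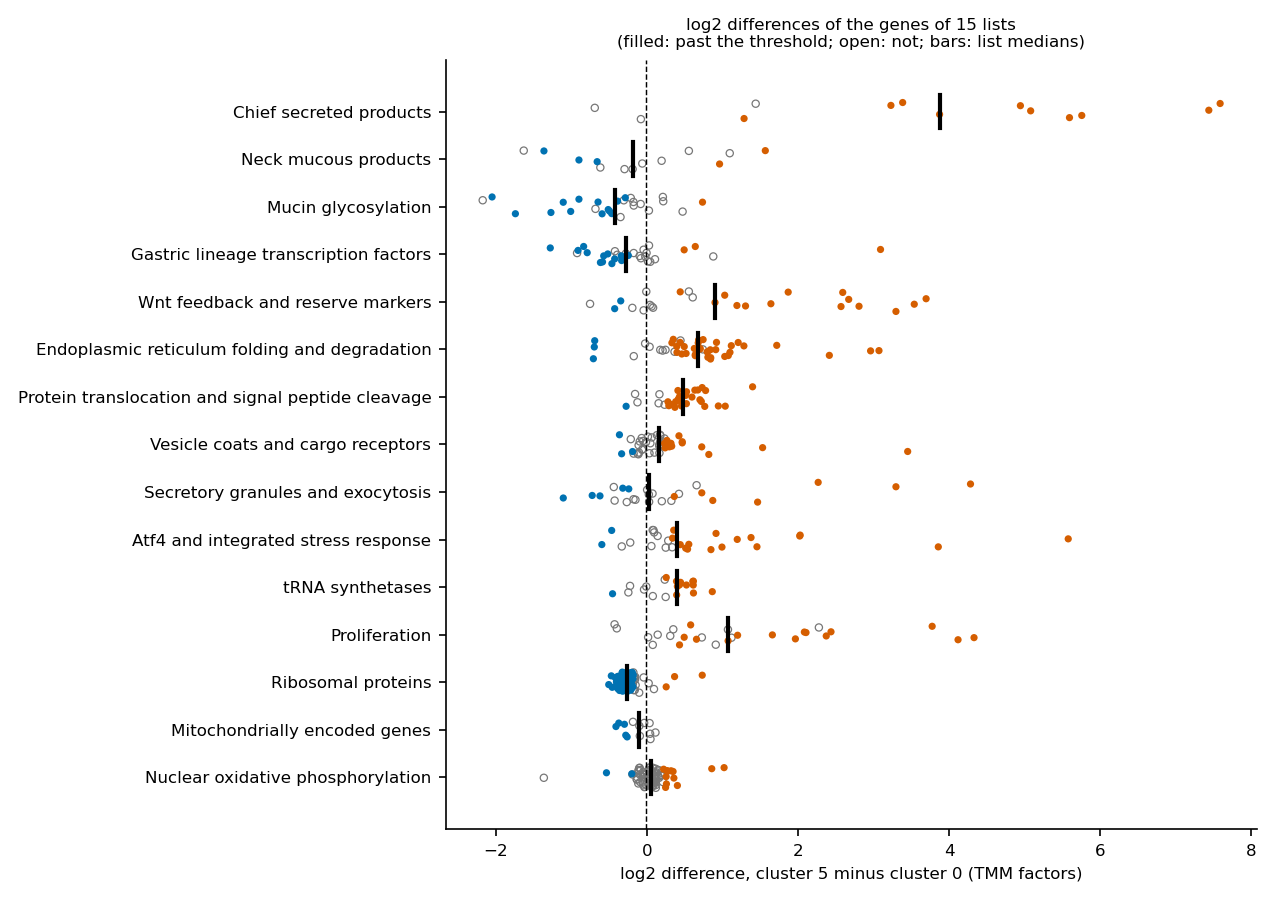
Log2 differences between cluster 5 and cluster 0 (TMM factors) for the tested genes of 15 lists, with filled points past the threshold, open points not, black bars at list medians and a dashed line at the median of all genes (-0.012). The medians of chief products (3.87), reserve markers (0.90) and endoplasmic reticulum folding (0.68) lie to the right and those of mucin glycosylation (-0.43) and ribosomal proteins (-0.26) to the left, whereas with library totals the medians of reserve markers (-0.097) and folding genes (-0.33) lie below 0.

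The machinery that moves new proteins into the reticulum rose broadly. Of 32 tested genes of translocation and signal peptide cleavage 26 rose and 1 fell (median 0.48), and without doublets 27 rose and 1 fell, but with library totals 1 rose and 28 fell. Ssr4, a subunit of the translocon-associated complex, was at 892, 1045, 919 and 968 scaled CPM against 373, 352, 362 and 361 (1.40 ± 0.069, adjusted p = 7.76e-13), a difference far wider than the spread within either cluster, and it rose with library totals also. The translocon channel subunit Sec61b rose by 0.73 ± 0.073 and the signal peptidase subunit Sec11c by 0.77 ± 0.070, both lower with library totals (-0.28 and -0.24). The 1 gene that fell was Ssr1 (-0.28 ± 0.088, adjusted p = 0.0278), whose call was lost without Ep+ 1 (-0.20, adjusted p = 0.196) or GFP+ 1 (-0.23, 0.133).

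Vesicle transport and granule genes carry cargo through the later steps of secretion. Of 43 tested genes of vesicle coats and cargo receptors 13 rose and 3 fell (median 0.16), and without doublets 15 rose and 1 fell, while with library totals 2 rose and 39 fell. The Tmed genes encode cargo receptors. Tmed6 was at 898, 1158, 1147 and 973 scaled CPM against 104, 96.2, 96.1 and 84.8 (3.45 ± 0.084, adjusted p = 2.91e-18), and Tmed3 was at 609, 571, 544 and 559 against 210, 191, 207 and 183 (1.53 ± 0.070, adjusted p = 2.04e-13). Neither pair of groups overlapped. Tmed10 rose by 0.32 ± 0.068 (adjusted p = 0.00155) and was lower with library totals (-0.69), and the retrieval receptor Kdelr2 fell (-0.36 ± 0.083, adjusted p = 0.00269). Of 25 tested genes of granules and exocytosis 7 rose and 5 fell (median 0.03), and without doublets 8 rose and 5 fell. Among those that fell were Sytl2, a Rab27 effector at the granule membrane (-1.11 ± 0.14, adjusted p = 1.75e-06), and the carboxypeptidase Cpd (-0.62 ± 0.10, adjusted p = 0.000154). Rab27b fell slightly (-0.24 ± 0.079, adjusted p = 0.0331), and its call was lost on leaving out any of the 4 libraries (-0.26 to -0.19, adjusted p = 0.0646 to 0.16).

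Genes of the integrated stress response, which Atf4 activates when the kinases of eIF2 alpha are switched on, rose in part. Of 28 tested, 16 rose and 2 fell (median 0.40), and without doublets 14 rose and 1 fell, while with library totals 5 rose and 18 fell (median -0.61). The study chose Atf4-related genes on these same libraries, so their direction is not independent evidence. Nupr1, a small stress-induced chromatin protein, was at 1077, 1210, 1677 and 752 scaled CPM against 40.2, 29.3, 23.8 and 12.4 (5.58 ± 0.34, adjusted p = 0.00312). Every cluster 5 value was above all of cluster 0, and the 10 richest cells held 45.4% of its UMIs. Asns, the asparagine synthetase, was at 398, 371, 324 and 310 against 164, 162, 157 and 129 (1.20 ± 0.074, adjusted p = 3.21e-11), and was 0.19 (adjusted p = 0.06) with library totals. Atf3, a transcription factor induced downstream of Atf4, rose slightly with overlapping groups (0.34 ± 0.068, adjusted p = 0.000751) and was lower with library totals (-0.67). Gpt2, an alanine aminotransferase, fell (-0.60 ± 0.16, adjusted p = 0.00978). Chac1, which degrades glutathione, and Pycr1, which makes proline, were named after their values were seen. Chac1 was at 37.4, 70.6, 45.6 and 23.7 against 7.16, 3.98, 1.86 and 1.11 scaled CPM (3.86 ± 0.42, adjusted p = 0.00501), and without GFP+ 1 it was 4.45. Pycr1 rose by 1.38 ± 0.16 (adjusted p = 7.84e-07).

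Of 20 tested tRNA synthetases, which are in part targets of Atf4, 12 rose and 1 fell (median 0.39), and with library totals none rose and 19 fell. Without doublets 10 rose and 1 fell, and after thinning, and likewise with the GFP+ libraries alone, 3 of 20 rose and none fell. Mars, the methionyl enzyme, rose by 0.86 ± 0.12 (adjusted p = 1.08e-05) and was lower with library totals (-0.13), and Farsb fell (-0.46 ± 0.10, adjusted p = 0.00203). The core of the C/EBP-ATF response element, TGATGNAA, was found in 8 of 28 windows of the integrated stress response list (28.6%) and in 5 of 13 of the tRNA synthetases (38.5%), against 4.51% of all genes. Of the 8 genes 6 were tested and 5 of these rose. The windows printed are those upstream of the start in genes with a large, middle and small difference (GRCm38.p6), with the core in capitals. The match is on the opposite strand in Chac1 (chr2:119351023-119351082), Nupr1 (chr7:126625547-126625606) and Atf3 (chr1:191183410-191183469) and on the promoter strand in Pycr1 (chr11:120643818-120643877).
Chac1: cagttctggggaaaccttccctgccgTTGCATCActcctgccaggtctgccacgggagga
Nupr1: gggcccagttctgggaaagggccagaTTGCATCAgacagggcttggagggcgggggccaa
Atf3: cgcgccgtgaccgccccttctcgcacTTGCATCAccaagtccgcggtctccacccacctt
Pycr1: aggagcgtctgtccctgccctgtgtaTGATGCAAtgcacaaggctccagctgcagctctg
The same 8 letters on the opposite strand stand before Chac1, Nupr1 and Atf3, whose differences ran from 3.86 and 5.58 down to 0.34.

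The genes with the largest falls had varied roles. Emp1, an epithelial membrane protein, was at 3.16, 19.1, 21.0 and 8.16 scaled CPM in cluster 5 and 79.1, 73.5, 82.6 and 101 in cluster 0 (log2 -2.78 ± 0.48, adjusted p = 0.0405). The groups did not overlap, but the call was lost without Ep+ 2 (-2.49, adjusted p = 0.145) or GFP+ 2 (-2.99, 0.103). Oit1 was at 48.2, 143, 232 and 170 against 595, 653, 753 and 821 (-2.37 ± 0.39, adjusted p = 0.0384), with the call lost without Ep+ 1 (-2.63, adjusted p = 0.0872), Ep+ 2 (-2.41, 0.175) or GFP+ 2 (-2.42, 0.139). Rbp2, a retinol carrier, fell by 2.36 on the log2 scale (adjusted p = 0.00501). Glp1r, the receptor of glucagon-like peptide 1, was at 15.3, 53.0, 24.3 and 34.2 against 110, 124, 147 and 151 (-2.18 ± 0.29, adjusted p = 0.0125), and missed the threshold without doublets (-2.37, adjusted p = 0.0668) and without Ep+ 2 (-2.19, 0.0861). Steadier falls were those of the glutamate transporter Slc1a3 (-1.72 ± 0.12, adjusted p = 1.78e-10), the progestin receptor Paqr8 (-1.69 ± 0.13, adjusted p = 2.18e-09) and the transcripts 2210404E10Rik (-2.12 ± 0.11) and 1700025G04Rik (-1.65 ± 0.17). Rflnb, an actin-linked protein, fell (-2.07 ± 0.30, adjusted p = 0.0228), with the call lost without Ep+ 2 (-1.99, adjusted p = 0.116) or GFP+ 2 (-2.04, 0.105), and Ppp2r1b, a phosphatase scaffold, fell with overlapping groups (-1.92 ± 0.25, adjusted p = 0.00564).

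Most ribosomal protein genes were lower by a small amount. Of 80 tested, 64 fell and 3 rose (median -0.26), and without doublets 73 fell and 3 rose. They took 50968 to 57490 unscaled CPM in cluster 5 and 118211 to 142235 in cluster 0, and all 80 fell with library totals. Rps27 was at 647, 737, 486 and 451 scaled CPM against 925, 1117, 649 and 634 (-0.51 ± 0.065, adjusted p = 4.03e-06). It was lower in cluster 5 in each library although the groups overlapped. Rps27l, a paralog induced by p53, rose by 0.73 ± 0.069 (adjusted p = 4.31e-08) and was lower with library totals (-0.28). Of the 13 mitochondrially encoded genes 5 fell and none rose (median -0.10), and 6 fell without doublets, with mt-Co1, a subunit of cytochrome oxidase, at 5594, 5889, 5407 and 5765 against 7535, 7513, 7603 and 7441 scaled CPM (-0.41 ± 0.057, adjusted p = 1.06e-05). Of 78 tested nuclear genes of oxidative phosphorylation 12 rose and 2 fell (median 0.05), and without doublets 4 rose and 9 fell of 77 (median -0.04). Over all genes 10.6% rose and 9.69% fell, and without doublets 10.1% and 9.86%, so these counts show no clear direction for the list. Ndufa1, a subunit of complex I, rose by 1.02 ± 0.071 (adjusted p = 2.48e-10), was 0.01 (adjusted p = 0.89) with library totals, and Cox7a2l, an assembly factor, fell by 0.54 on the log2 scale (adjusted p = 3.62e-05).

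Values of cluster 1, the larger chief cell cluster with 896 cells, were taken from a fit over clusters 0, 1 and 5. The comparisons share sums, so they stand side by side with no test of their overlap. For several chief cell genes cluster 5 lay between the other clusters. Clps was 8.01 higher in cluster 1 than in cluster 0 on the log2 scale (adjusted p = 1.78e-06) and 2.30 lower in cluster 5 than in cluster 1 (that is, -2.30, adjusted p = 0.000697). Bhlha15 was 4.75 above cluster 0 in cluster 1, with cluster 5 at -1.64 against cluster 1 (adjusted p = 4.11e-14). Hspa5 was 1.82 above cluster 0, with cluster 5 at -0.99 against cluster 1 (adjusted p = 0.000314). Muc6 was at -7.30 in cluster 1 against cluster 0, and cluster 5 was 5.94 above cluster 1 (adjusted p = 4.42e-05). Cblif did not follow this order clearly, since cluster 1 was 4.46 above cluster 0 while cluster 5 differed from cluster 1 by -0.63, which did not pass (adjusted p = 0.111).

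A smaller set of genes was highest in cluster 5. Lgr5 was 0.96 higher in cluster 5 than in cluster 1 (adjusted p = 0.00109) and cluster 1 was 2.56 above cluster 0. Smoc2 was 3.56 higher in cluster 5 than in cluster 1 (adjusted p = 0.000448), while clusters 1 and 0 differed by 0.12 (adjusted p = 0.864). Gkn3 was 6.02 higher in cluster 5 than in cluster 1 (adjusted p = 2.17e-05). Notum (3.84, adjusted p = 7.46e-07), Nkd1 (1.63, adjusted p = 9.49e-06), Rnf43 (0.75, adjusted p = 0.000108) and Axin2 (0.65, adjusted p = 0.008) were higher in cluster 5 than in cluster 1 as well, whereas Sp5 (-0.18, adjusted p = 0.332) and Ascl2 (0.30, adjusted p = 0.168) did not pass. Of 11575 genes tested in this fit, 63.7% were called between clusters 1 and 0 and 45.6% between clusters 5 and 1.

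The sort took no part in forming the clusters, so the difference between clusters 5 and 0 was also compared between GFP+ and Ep+ libraries. Of 10512 genes 6 were called for the interaction (0.0571%), and 466 had an unadjusted p under 0.05 (4.43%). None of the 10512 was called once a term for cluster by replicate number was added (372 unadjusted). That term leaves little replication among 8 sums, and the estimates hardly moved (Ptgr1 -1.38, Clps -1.06). The loss of calls therefore cannot show whether the interaction depends on the replicate. Cblif rose less in GFP+ than in Ep+ libraries (-1.02 ± 0.17, adjusted p = 0.00732), and so did Clps (-1.06 ± 0.19, adjusted p = 0.0315). In both genes the cluster 0 values were higher in the GFP+ libraries, as given above. Tff2 (-1.14 ± 0.20, adjusted p = 0.0316) and the reductase Ptgr1 (-1.37 ± 0.21, adjusted p = 0.0038) were called as well, but without the called doublets they were at -0.04 and -0.80 and were not. Cela1, an elastase, was at 394, 160, 245 and 181 scaled CPM in cluster 5 against 91.7, 35.5, 113 and 114 in cluster 0, with a larger difference in the GFP+ libraries (1.23 ± 0.19, adjusted p = 0.0038). Between clusters over all 4 libraries Cela1 did not pass (1.44 ± 0.36, adjusted p = 0.0942), though it did without Ep+ 2 (1.74, adjusted p = 0.04). The sixth gene, 2210010C04Rik, was at 0.451, 0, 4.86 and 16.3 scaled CPM in cluster 5 against 1.79, 6.15, 0.64 and 1.73 in cluster 0 (-6.66 ± 1.0, adjusted p = 0.0038). Its cluster 5 signal was 56 UMIs in 6 cells, of which 98.2% lay in called doublets and 71.4% in 1 cell, and without the doublets it was too low to test.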

How the data were processed

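Droplet 3′ RNA-seq was deposited for 4 libraries of sorted mouse stomach epithelium, 2 GFP+ and 2 Ep+. The authors aligned reads to mm10 and counted UMIs with Cell Ranger 3.0.2, then discarded cells above 15% mitochondrial UMIs, cells with over 8000 or under 1500 genes, and cells with any Ptprc or Pecam1 UMI. The deposited values are raw UMI counts, whole numbers for 17712 genes in 4449 cells, with a table that assigns every cell to a library and to an authors' cluster, and no column was left unused. No count was recorded for 21 of the genes. A clustering resolution was not given in the sources used here.

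Counts of clusters 5 and 0 were summed per library (8 sums, each over at least 20 cells) and fitted with edgeR 4.0.16 in R 4.3.3, with TMM factors, filterByExpr, robust quasi-likelihood tests (two-sided), the library as a block and Benjamini-Hochberg adjustment over all genes tested at 0.05. The block needs no pairing check, since both sums of a library come from the same load. Standard errors came from the coefficient and its F statistic. The fits were tested on simulated counts. Scrublet (scanpy 1.11.5) was run on each library to call doublets. Cells were thinned without replacement to 13268 UMIs, the 10th percentile over both clusters. Shares of cells cover counting error only. Within-library differences used log2 of scaled CPM with a pseudocount of 1. The interaction of cluster and sort was tested on the same sums. DESeq2 1.42.0 was one of 18 alternative settings, and 2 more were added after seeing the data.

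Gene symbols are those of the count table. Gene coordinates come from the annotation table matched by symbol and were not found for Cblif. Promoter windows are RefSeq sequences of GRCm38.p6. The members and the 37 gene lists, 12 of them cell type markers, were chosen with earlier results of these data known. Named are the 12 largest rises and 12 largest falls among genes of at least 50 CPM that moved one way in all 4 libraries, the 4 most abundant members and the largest rise and fall of each list, genes the study names as markers, and the 4 smallest interaction p-values. Of 111 genes followed through all alternatives, 13 lie outside this rule and were chosen after their values were seen.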

Additional observations from a re-analysis of the deposited data

Results flagged for a closer look

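Within-library log2 differences between cluster 5 and cluster 0 were inspected for 1 library apart from the other 3 (Dixon's test for 4 values). Chance alone sets off about 1 in 20 such tests, and 9 of 111 genes were set off here. In GFP+ 2, St3gal6 was highest (0.94), and Notum (-0.29), Dnajc10 (-1.05), Rab27b (-0.42), Gpt2 (-0.89) and Atp4a (1.86) were lowest. Sec61b was lowest in Ep+ 1 (0.48), Tmed6 was lowest in GFP+ 1 (3.10) and H2-K1 was highest in Ep+ 2 (0.75). Only the value of Notum changed the direction seen in the other libraries. GFP+ 2, with 40 cells of cluster 5 and 68 of cluster 0, is the library with the fewest cells on both sides.

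The cluster difference was larger in GFP+ than in Ep+ libraries for Cela1 (log2 interaction 1.23), and smaller for Ptgr1 (-1.37), 2210010C04Rik (-6.66), Cblif (-1.02), Clps (-1.06) and Tff2 (-1.14), by edgeR's test of the interaction with adjusted p under 0.05. Without called doublets, Ptgr1 and Tff2 did not pass, 2210010C04Rik was too low to test, and Nupr1 was called in addition (-1.41).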

How the results depend on the processing

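Of 2191 values of 111 genes under the alternatives, 1951 were counted as unchanged, 158 missed the threshold, 33 newly passed it and 49 turned. A turn was counted only for genes called in the main fit. A change of sign in a gene not called there was counted as unchanged. The 2136 calls (1117 higher, 1019 lower) became 9518 (219 and 9299) with library totals, 8508 (207 and 8301) with totals and no doublets, 5785 (150 and 5635) with totals and thinned cells, 1091 (574 and 517) with thinned cells, 1070 (641 and 429) with DESeq2 and 878 (478 and 400) with GFP+ libraries alone, where 86 of 134 called named genes passed in the same direction. Leaving out a library in turn gave 1355 to 1832 calls (727 to 988 higher, 628 to 844 lower) and 111 to 121 of the named genes, with the lowest count of calls without Ep+ 2. Both cluster sums of a library come from 1 load, so the library is the pairing. With a replicate block of replicate number and sort the calls were 2141, and with no replicate block 1397, of which 768 were higher and 629 lower. The interaction calls, 6, became 11 with library totals and 35 with no filter. They became 0 by edgeR once cluster by replicate number was added as a replicate block (372 unadjusted), a fit with little replication left.

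Mcm6 turned with GFP+ libraries alone (-0.13) and thinned cells (-0.29). All other counted turns of called genes came with library totals. These gave St3gal6 -0.27, Aqp5 -0.57, Xbp1 -0.37, Ccnd2 -0.74, Pcna -0.52, Mcm6 -0.43, Hspa5 -0.17, Hsp90b1 -0.30, Ppib -0.51, Calr -0.21, Sec61b -0.28, Sec11c -0.24, Tmed10 -0.69, Atf3 -0.67, Mars -0.13, Rps27l -0.28, B2m -0.31 and H2-K1 -0.59. Without doublets as well, the values were St3gal6 -0.24, Aqp5 -0.13, Xbp1 -0.16, Ccnd2 -0.55, Pcna -0.50, Mcm6 -0.63, Hspa5 -0.082, Hsp90b1 -0.16, Ppib -0.27, Calr -0.047, Sec61b -0.14, Sec11c -0.026, Tmed10 -0.52, Atf3 -0.54, Rps27l -0.20, B2m -0.055 and H2-K1 -0.29. With thinned cells and totals they were St3gal6 -0.10, Ccnd2 -0.29, Pcna -0.57, Mcm6 -1.02, Hsp90b1 -0.064, Ppib -0.072, Sec61b -0.082, Tmed10 -0.38, Atf3 -0.50, Mars -0.17, Rps27l -0.19 and H2-K1 -0.088. Totals lower the median of all genes. Fewer samples or genes entered the other settings that moved the count, among them the fit with no block (9956 genes), but not DESeq2 (10512 genes). Why the counts moved was not tested. The 2136 calls rest on 40 to 91 cells of cluster 5 a library, and genes of few UMIs such as Notum are measured coarsely. The other alternatives kept the count of calls within 1.5 times.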

Other observations

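Channels and transporters divided between the clusters. Of 16 tested genes of water and ion transport 3 rose and 5 fell (median log2 difference -0.18), and the counts were equal without the called doublets. The water channel Aqp4 was at 69.0, 29.7, 41.2 and 37.7 scaled CPM in cluster 5 against 26.2, 24.6, 19.8 and 13.9 in cluster 0 (1.14 ± 0.15, adjusted p = 1.63e-05, edgeR), and the potassium channel Kcnq1 was at 38.3, 17.7, 29.2 and 32.7 against 11.3, 12.3, 11.8 and 10.5 (1.42 ± 0.15, adjusted p = 3.58e-07). Both pairs of groups were apart, and Aqp4 was not called with library totals (0.13, adjusted p = 0.46). The potassium channel Kcnn4 fell (-1.14 ± 0.13, adjusted p = 8.64e-07). Of 18 tested genes of EGF receptor signaling 1 rose and 5 fell (median -0.34), and without doublets none rose and 5 fell of 17, with Egfr itself at -1.13 ± 0.31 (adjusted p = 0.0106), which was lost without Ep+ 2 (-0.88, adjusted p = 0.156). Of 14 tested genes of antigen presentation 3 rose and 1 fell (median 0.27), and without doublets 3 rose and 1 fell of 13. B2m, the light chain of class I molecules, was at 256, 311, 197 and 300 against 171, 194, 131 and 159 (0.70 ± 0.078, adjusted p = 4.42e-07), though it was -0.31 with library totals.

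Of 22 tested cytosolic heat shock genes 1 rose and 2 fell, and without doublets 2 rose and 2 fell. Hspa1a overlapped between the clusters (0.14 ± 0.081, adjusted p = 0.262), whereas Cryab, a small heat shock protein, was at 70.3, 65.7, 19.1 and 46.3 against 13.1, 10.9, 8.96 and 9.77 (2.07 ± 0.22, adjusted p = 0.000296). Against a background of 10.6% higher and 9.69% lower over all genes, immediate-early genes gave 5 higher and 3 lower of 24 (6 and 3 without doublets), cholesterol synthesis 3 and 2 of 22 (2 and 4), lysosome and autophagy 6 and 3 of 28 (5 and 1), metaplasia-linked genes 6 and 2 of 21 (7 and 3 of 20), keratins and junctions 1 and 3 of 13 (1 and 2 of 12), and cell cycle inhibitors and cyclins 4 and 1 of 12 (3 and 1 of 11). None of the 4 tested endocrine markers and not the 1 tested tuft cell marker was called (edgeR), and without doublets none of the 4 endocrine markers was.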
